A study of Homo sapiens with 8 samples.

Results

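Phosphoinositide 3-kinase (PI3K) pairs a regulatory with a catalytic subunit at activated growth factor receptors and makes the membrane lipid that recruits AKT, while *SGK1* encodes a related kinase that is switched on by the same route. AKT and SGK1 phosphorylate many of the same proteins, among them the FOXO transcription factors, which leave the nucleus when phosphorylated. In colorectal cancer this pathway carries growth and survival signals downstream of receptors such as the fibroblast growth factor receptors (FGFR). The 9 genes described here were picked by name, as the regulatory subunit genes *PIK3R1*, *PIK3R2* and *PIK3R3*, the catalytic subunit genes *PIK3CA*, *PIK3CB* and *PIK3CD*, and the kinase genes *AKT1*, *AKT2* and *SGK1*. All 9 were found among the 63241 genes listed for NCI-H716, and 6 among the 28043 used for HCT116. The HCT116 table used here covers chromosomes 1 to 8 and the start of chromosome 9, so *PIK3R2*, *AKT1* and *AKT2* have values in NCI-H716 only. Gene positions below are those of GENCODE v44 on hg38, and counts cover exons.

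RNA had been sequenced from HCT116 and NCI-H716, both established human colorectal cancer lines, as 2 control and 2 treated libraries for each line. The labels call the treated libraries Test, which is read here as treatment with Z325 (ZINC000101867325), the compound the study examined as an FGFR inhibitor, and they state neither the dose nor the time for RNA. About 100 cells went into each reaction. The study calls the 2 libraries of a group biological duplicates, without saying what was separate between them, and p-values measure the spread between these libraries. Fewer cells carrying a transcript and less of it per cell cannot be told apart in these bulk libraries.

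The 8 libraries held 3434620 to 19738840 counts, and the shallowest was Z325 replicate 2 of HCT116, against 13183792 to 13396225 in the other 3 libraries of that line. EPCAM, an epithelial adhesion molecule, had 5665 to 21581 counts in HCT116 and 506 to 861 in NCI-H716. Of the 9 epithelial markers, 3 were listed in HCT116 and 9 in NCI-H716, with summed levels, per library total and without TMM factors, of 1476 to 1637 counts per 1000000 (CPM) in HCT116 controls and 1578 to 1650 in Z325 libraries, and of 756 to 767 in NCI-H716 controls and 644 to 646 in Z325 libraries. The HCT116 sum came almost wholly from EPCAM, since VIL1 had at most 6 counts there and CDX1 at most 2. CDX1 had 0 counts in all 4 NCI-H716 libraries, and CDH1 had at most 7 in that line. The 5 endocrine markers summed to 2278 to 2723 CPM in the controls of NCI-H716, a line known for enteroendocrine features, and to 1931 to 2068 with Z325, and GCG, the proglucagon gene, gave 20775 to 33561 of their counts. In HCT116 the 4 of them that were listed summed to 21.3 to 22.3 CPM in controls and 14.1 to 18.1 with Z325, with GCG at 0. The leukocyte gene PTPRC had at most 4 counts in any library, and the summed level of the markers of other cells in NCI-H716, 242 to 273 CPM in controls and 313 to 365 in Z325 libraries, came almost wholly from COL3A1. The part of these marker shifts in the results below was not tested. The CPM of single genes below are scaled with TMM factors as well. In HCT116 the total covers only chromosomes 1 to 8 and the start of chromosome 9, which raises CPM there. CPM, of marker sums too, are therefore not compared between the lines.

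Stretches of 250 bases before the RefSeq start (build GRCh38.p14) were read for all 9 genes. Those of *PIK3CB* and *SGK1* are shown as 2 starts of unlike composition, at 72.8% and 33.6% GC. *PIK3CB* lies on the minus strand at chr3:138834929-138835178 and *SGK1* on the minus strand at chr6:134318113-134318362, the outermost of the starts annotated for that gene. Capitals mark the GC box GGGCGG and the letters CCAAT, on either strand, in *PIK3CB*, where GC boxes overlap each other. In *SGK1* they mark the TATA box letters TATAAA, which lie on the strand opposite to the gene and so are printed as TTTATA.
PIK3CB: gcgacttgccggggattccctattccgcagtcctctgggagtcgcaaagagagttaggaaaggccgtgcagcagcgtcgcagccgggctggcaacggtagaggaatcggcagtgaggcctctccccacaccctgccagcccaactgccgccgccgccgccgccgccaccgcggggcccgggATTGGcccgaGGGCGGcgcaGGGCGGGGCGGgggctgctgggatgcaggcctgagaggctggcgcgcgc
SGK1: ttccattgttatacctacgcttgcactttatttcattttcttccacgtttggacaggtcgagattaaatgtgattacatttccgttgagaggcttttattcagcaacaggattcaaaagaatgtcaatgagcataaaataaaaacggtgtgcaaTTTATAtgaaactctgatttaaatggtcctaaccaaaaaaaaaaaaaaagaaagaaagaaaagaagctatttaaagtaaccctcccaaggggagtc
GC boxes were found in the windows of 8 of the 9 genes, the exception being *SGK1*, against 42.6% of 35116 RefSeq windows of this length. The windows of the 9 genes ran from 33.6% GC in *SGK1* to 83.2% in *AKT1*.
The core letters that FOXO factors bind, GTAAACA on either strand, were found in 1 of the 9, 149 bases before the start of *PIK3CA*, against 2.98% of all windows. This match is shown with 7 bases on each side, at chr3:179148201-179148221 on the plus strand, where GENCODE v44 also annotates the first exon of another *PIK3CA* transcript. Capitals mark the match.
PIK3CA: cgttgttTGTTTACacgatgt
A match of letters describes the sequence and shows no binding.

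Among the regulatory subunit genes, *PIK3R1* encodes the p85alpha protein, which holds the catalytic subunit stable and inactive until a receptor binds it. In HCT116 *PIK3R1* (chr5:68215740-68301821, plus strand) stood at 24.4 and 14.0 CPM in the controls and at 10.5 and 6.30 CPM in the Z325 libraries. Both treated libraries lay below both controls, as they did in 29% of all genes tested in HCT116. The log2 fold change was -1.15 (SE 0.40, n = 2 a group), with an adjusted p of 0.129 in edgeR's quasi-likelihood test. Without the shallow Z325 replicate 2 it was -0.85, and without Z325 replicate 1 it was -1.62. Without control replicate 1 it was -0.71, and without control replicate 2 it was -1.515. Each of these fits left a lone library in a group, assumed to vary as the other group did. In NCI-H716 the same gene stood at 13.9 and 25.1 CPM in the controls and at 17.3 and 24.4 CPM in the Z325 libraries. The groups overlapped, and the log2 fold change was 0.11 (SE 0.30, edgeR adjusted p = 0.892).

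*PIK3R3* (chr1:46040140-46133036, minus strand) encodes p55gamma, a shorter regulatory subunit. In HCT116 it had 30 and 14 counts in the controls and 0 in both Z325 libraries, or 2.17 and 1.07 CPM against 0 and 0. At the control mean, 20.7 counts would have been expected in Z325 replicate 1 and 5.66 in the shallow replicate 2. Taking 3 counts over the treated pair as the floor, 0.184 CPM, the level was at least 8.80-fold lower than the control mean. Against the lowest control it was at least 5.83-fold lower. The floor does not take the spread between libraries into account. The edgeR adjusted p was 0.0688. Without control replicate 1 the gene no longer passed the filter on low counts. In NCI-H716 *PIK3R3* was well detected, at 14.99 and 20.6 CPM in the controls and 15.4 and 16.7 CPM in the Z325 libraries. The groups overlapped there, and the log2 fold change was -0.14 (SE 0.24, edgeR adjusted p = 0.807). *PIK3R3* shares 17.5% of its exon bases with the readthrough gene *P3R3URF-PIK3R3*, which had 0 counts in all 8 libraries, and how reads in shared exons were assigned is not given in the sources used here.

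The mean transcript length that RSEM estimated for *PIK3R3* in NCI-H716 separated the groups where the read level did not. It was 4227 and 4477 bases in the controls and 2417 and 2516 bases in the Z325 libraries, a ratio of 0.567. A ratio that low with both treated libraries below both controls was found in 48 of 14142 genes, or 0.339%. Deposited FPKM, which divides by this length, was 3.70 and 4.92 in the controls and 7.08 and 7.55 in the Z325 libraries, so the direction of *PIK3R3* in NCI-H716 turned with the unit (0.66 in limma on log2(FPKM + 1), adjusted p = 0.363). The 7 transcripts listed for the gene run from 753 to 5596 bases. Mean transcript length was shorter in both Z325 libraries for 3 of the 7 tested genes, *PIK3R3*, *PIK3CA* and *AKT2*, against 14.5% of all genes tested. *PIK3CA* had 3227 and 3149 bases in the controls and 3051 and 2811 in the Z325 libraries, and *AKT2* 5074 and 5053 against 4563 and 4398.

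**Figure D1:**
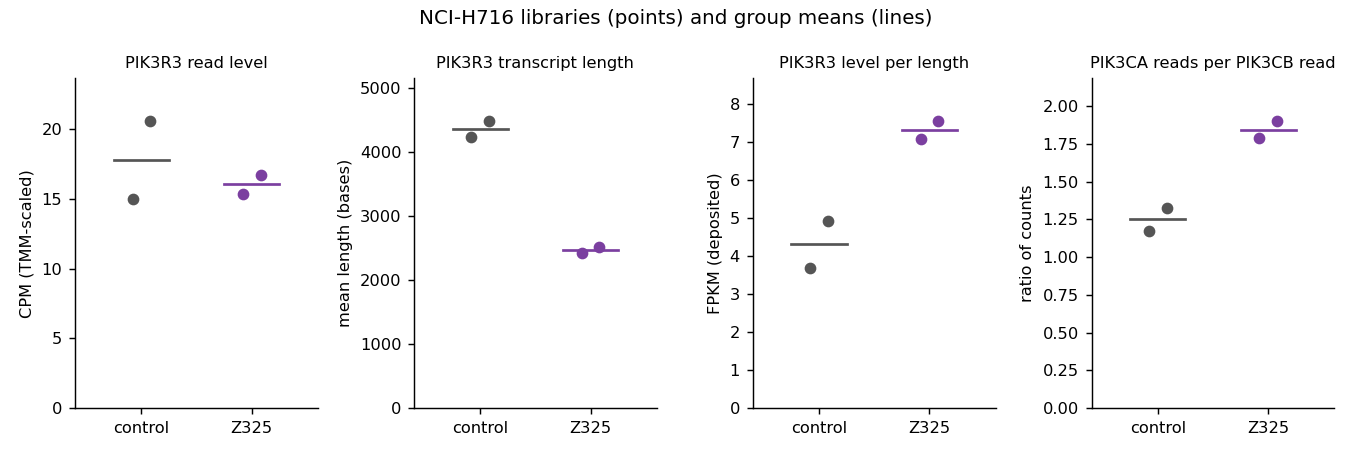
NCI-H716 libraries (points) and group means (lines), with panels for *PIK3R3* in CPM, its mean transcript length in bases and its deposited FPKM, and for *PIK3CA* counts per *PIK3CB* count. The *PIK3R3* CPM values overlap, while its length lies at 4227 and 4477 bases in controls and 2417 and 2516 with Z325, and the count ratio at 1.17 and 1.33 against 1.79 and 1.90.

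*PIK3R2* (chr19:18153163-18170532, plus strand) encodes the p85beta subunit. In NCI-H716 it stood at 2.35 and 5.04 CPM in the controls and 3.28 and 6.03 CPM in the Z325 libraries, with overlapping groups and a log2 fold change of 0.36 (SE 0.47, edgeR adjusted p = 0.740). Its value is uncertain, since 76.4% of its exon bases are shared with the readthrough gene ENSG00000268173 on the same strand. Counted together, the pair stood at 7.80 and 7.56 CPM in the controls and 7.87 and 9.10 CPM with Z325. The sums lay closer together within the control group than *PIK3R2* alone, and the log2 fold change was 0.15 (SE 0.27, edgeR adjusted p = 0.830).

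Of the catalytic subunit genes, *PIK3CA* (chr3:179148114-179240093, plus strand) encodes p110alpha, the form that is often mutated in colorectal cancer. In NCI-H716 it stood at 16.1 and 20.4 CPM in the controls and at 27.9 and 38.1 CPM in the Z325 libraries. Both treated libraries lay above both controls, as in 24.3% of all genes tested in this line. The log2 fold change was 0.86 (SE 0.23), with an unadjusted p of 0.00408 and an adjusted p of 0.139 in edgeR. Without Z325 replicate 1 it was 1.07, and without Z325 replicate 2 it was 0.63. Without control replicate 1 it was 0.70, and without control replicate 2 it was 1.04. In HCT116 *PIK3CA* stood at 21.7 and 21.0 CPM in the controls and 28.1 and 19.2 CPM with Z325. The groups overlapped, and the log2 fold change was 0.16 (SE 0.28, edgeR adjusted p = 0.791). *PIK3CA* shares 19.8% of its exon bases with *KCNMB3* on the opposite strand, a partner at 1.67 to 4.98 CPM in NCI-H716, and with those reads added the log2 fold change in NCI-H716 was 0.84 (SE 0.24, edgeR adjusted p = 0.155).

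*PIK3CB* (chr3:138652698-138834928, minus strand) encodes p110beta, which also answers G protein-coupled receptors. In HCT116 it stood at 52.2 and 32.6 CPM in the controls and 28.2 and 33.0 CPM with Z325, with overlapping groups and a log2 fold change of -0.48 (SE 0.28, edgeR adjusted p = 0.345). In NCI-H716 it stood at 13.8 and 15.3 CPM in the controls and 15.6 and 20.1 CPM with Z325. Both treated libraries lay above both controls by a margin smaller than the spread within either group, and the log2 fold change was 0.30 (SE 0.24, edgeR adjusted p = 0.555). *PIK3CA* gave 1.17 and 1.33 counts per *PIK3CB* count in NCI-H716 controls and 1.79 and 1.90 in the Z325 libraries. This ratio within a library separated the groups, but it was not tested. How often ratios of other gene pairs do so was not computed. Single genes separated the groups in 25.1% (lower) and 24.3% (higher) of those tested in NCI-H716. In HCT116 the same ratio was 0.416 and 0.645 in the controls and 0.995 and 0.583 with Z325, and the groups overlapped.

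*PIK3CD* (chr1:9629889-9729114, plus strand) encodes p110delta, known mainly from leukocytes. It stood at 2.75 and 4.68 CPM in HCT116 controls and 2.03 and 4.58 CPM with Z325, with overlapping groups and a log2 fold change of -0.25 (SE 0.61, edgeR adjusted p = 0.860). In NCI-H716 it had 3 and 1 counts in the controls and 5 and 1 with Z325, too few to pass the filter on low counts. *PIK3CD* shares 1.98% of its exon bases with *CLSTN1* on the opposite strand. In HCT116 *CLSTN1* stood at 15.8 and 17.6 CPM in the controls and 11.9 and 12.6 CPM with Z325.

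Of the kinase genes, *AKT1* (chr14:104769349-104795751, minus strand) encodes the AKT form tied to growth and survival. In NCI-H716 it stood at 79.2 and 63.9 CPM in the controls and 62.0 and 45.4 CPM in the Z325 libraries. Both treated libraries lay below both controls, as in 25.1% of all genes tested, but the nearest libraries of the groups were closer to each other than replicates were. The log2 fold change was -0.42 (SE 0.21, edgeR adjusted p = 0.332). The antisense lncRNA ENSG00000258430, which shares 6.05% of the exon bases of *AKT1*, stood at 11.8 and 3.20 CPM in the controls and 0.382 and 0.0503 CPM with Z325. Without strand, reads of the 2 genes cannot be told apart in the shared stretch, but can be elsewhere. With its reads added, the log2 fold change of *AKT1* was -0.56 (SE 0.22, edgeR adjusted p = 0.245). *AKT2* (chr19:40230317-40285536, minus strand), the form tied to insulin-driven glucose uptake, stood at 9.54 and 7.47 CPM in the controls and 9.24 and 7.79 CPM with Z325, a log2 fold change of -0.01 (SE 0.28, edgeR adjusted p = 0.995).

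*SGK1* (chr6:134169248-134318112, minus strand) encodes a kinase whose transcript is known to be induced by glucocorticoids and by stress. In HCT116 it stood at 13.3 and 17.7 CPM in the controls and at 7.98 and 4.30 CPM in the Z325 libraries, the last from 15 counts. Both treated libraries lay below both controls, as in 29% of all genes tested in HCT116. The log2 fold change was -1.28 (SE 0.39), with an unadjusted p of 0.0111 and an adjusted p of 0.0959 in edgeR. Without the shallow Z325 replicate 2 it was -0.93, and without Z325 replicate 1 it was -1.86. Without control replicate 1 it was -1.49, and without control replicate 2 it was -1.08. In NCI-H716 *SGK1* was near 0, with 2 and 1 counts in the controls and 0 and 10 with Z325, and was not tested.

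**Figure D2:**
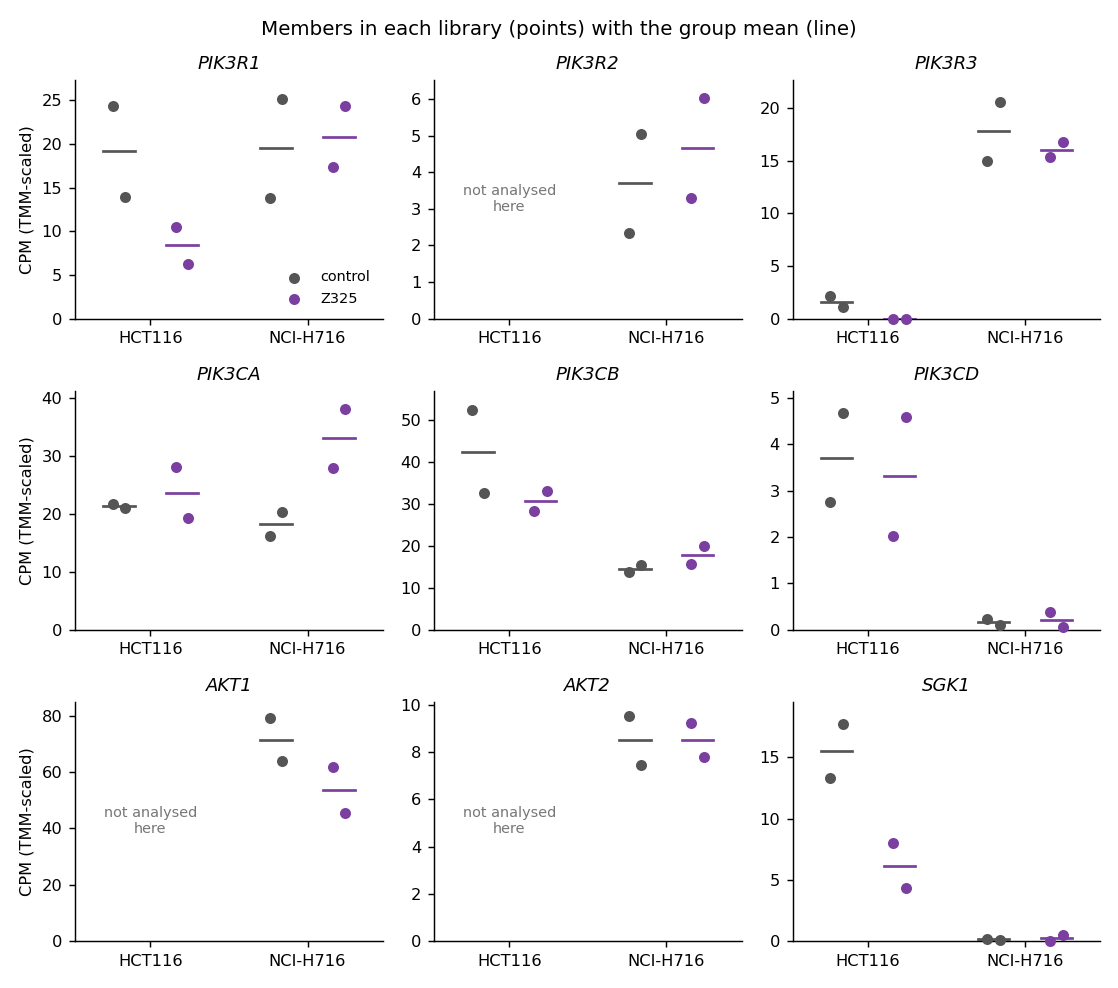
Level of each of the 9 genes in CPM (vertical axes, linear from 0) in every library (points), with group means as lines, for control (grey) and Z325 (purple) in HCT116 and NCI-H716. The totals behind CPM cover different genes in the 2 lines, so heights are not compared between them. *PIK3R1*, *PIK3R3* and *SGK1* lie lower with Z325 in HCT116 without overlap, and *PIK3CA* lies at 27.9 and 38.1 CPM with Z325 in NCI-H716 above controls at 16.1 and 20.4.

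Counted together in HCT116, 0 of the 6 genes passed an adjusted p of 0.05 in edgeR, a threshold passed by 5.78% of the 6491 genes tested. At an unadjusted p under 0.05, 3 of the 6 were lower (*PIK3R1*, *PIK3R3* and *SGK1*) against 12.7% of all genes, and 0 were higher against 11.2%. The same 3 had both Z325 libraries below both controls, against 29% of all genes, and 0 had both above, against 24.8%. Of these, *PIK3R3* had 0 counts in both Z325 libraries and passed the filter on low counts through the controls alone. It could therefore only come out lower, and it adds no support to these counts. The median log2 fold change of the 6 was -0.81, with *PIK3R3* at its fitted value or at its bound, and that of all genes tested was -0.03. In NCI-H716, 0 of the 7 tested genes passed the adjusted threshold, against 0.502% of 14142. At an unadjusted p under 0.05, *PIK3CA* alone of the 7 was higher, against 7.59% of all genes, and 0 were lower, against 9.27%. The median of the 7 was 0.11 and that of all genes -0.01.

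**Figure D3:**
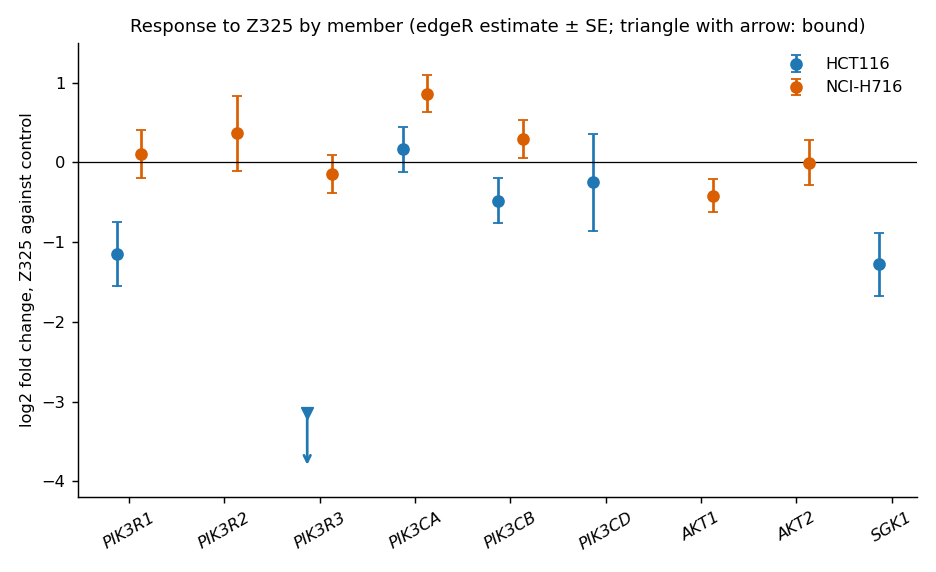
Log2 fold change of Z325 against control (points, edgeR) with 1 standard error (bars) for each gene in HCT116 (blue) and NCI-H716 (orange), with genes that were not tested left blank. The triangle with an arrow is the bound of at least 8.80-fold below the control mean for *PIK3R3* in HCT116, and no gene passed an adjusted p of 0.05.

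A model over all 8 libraries, with a term for treatment by line, asked whether a response differed between HCT116 and NCI-H716. Of the 6 genes listed in both lines, 0 passed an adjusted p of 0.05, against 0.0654% of 7642 genes. *PIK3R3* had the smallest p of the 6, with an adjusted p of 0.0894 in edgeR, and this was 0.0421 without Z325 replicate 2 of HCT116 and up to 0.286 when another library was left out. The response of *PIK3R1* was lower in HCT116 than in NCI-H716 by a log2 difference of -1.23 (SE 0.54, edgeR adjusted p = 0.330). That of *PIK3CA* differed by -0.68 (SE 0.38, edgeR adjusted p = 0.439) and that of *PIK3CB* by -0.77 (SE 0.40, edgeR adjusted p = 0.398). For *PIK3CD* and *SGK1*, which were near 0 in NCI-H716, the edgeR adjusted p was 0.986 and 0.435.

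Levels were compared between genes only per length, as FPKM, and within a line, since HCT116 FPKM was computed here from counts and the listed total while NCI-H716 FPKM is RSEM's. The HCT116 length was all annotated exon bases of a gene, 17189 for *PIK3CA*, 16323 for *PIK3R1* and 7841 for *PIK3CB*. The longest transcripts listed for these genes in NCI-H716 have 9259, 6975 and 6259 bases. The order, shares and sums of FPKM in HCT116 depend on this choice of length. In HCT116 controls *PIK3CB* led, with a mean of 5.51 FPKM (SD 1.97), above *SGK1* at 1.57 (SD 0.264). *PIK3CA* at 1.26 and *PIK3R1* at 1.20 followed and overlapped each other, and the libraries of *PIK3R1* (1.55 and 0.846) also overlapped those of *SGK1* (1.38 and 1.75). *PIK3CD* at 0.391 and *PIK3R3* at 0.224 were lowest and overlapped. With Z325 *PIK3CB* at 3.85 FPKM and *PIK3CA* at 1.35 were separate from the rest, while *SGK1* at 0.600, *PIK3R1* at 0.503 and *PIK3CD* at 0.345 overlapped as neighbours. The listed regulatory genes, *PIK3R1* and *PIK3R3* without *PIK3R2*, summed to 0.218 and 0.171 FPKM per catalytic FPKM in HCT116 controls and to 0.118 and 0.0666 with Z325. The groups did not overlap, and this ratio was not tested. For scale, single genes separated the groups in 29% (lower) and 24.8% (higher) of those tested in HCT116.

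In NCI-H716 controls *AKT1* led at 40.1 FPKM (SD 4.87), followed by *PIK3R1* at 7.69 and *PIK3CA* at 6.20, which overlapped. *PIK3R3* at 4.31 and *PIK3CB* at 4.22 overlapped below them, as did *AKT2* at 1.76 and *PIK3R2* at 1.57, and *SGK1* at 0.15 and *PIK3CD* at 0.07 were lowest. With Z325 *AKT1* stood at 30.9 FPKM, and *PIK3CA* at 12.6, *PIK3R1* at 10.6 and *PIK3R3* at 7.32 overlapped as neighbours, above *PIK3CB* at 5.38. *PIK3CA* made up 59.0% and 59.2% of the FPKM of the catalytic genes in controls and 68.5% and 70.7% with Z325, so the groups did not overlap. All 3 regulatory genes summed to 1.38 and 1.23 FPKM per catalytic FPKM in NCI-H716 controls and to 1.07 and 1.11 with Z325, also without overlap. Neither this ratio nor the share of *PIK3CA* was tested. Both divide by RSEM's lengths, which were shorter in both Z325 libraries for *PIK3R3* and *PIK3CA*. For scale, single genes separated the groups in 25.1% (lower) and 24.3% (higher) of those tested in NCI-H716. In HCT116 the share of *PIK3CA* was 15.4% and 20.8% in controls and 29.99% and 19.3% with Z325, with overlapping groups.

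**Figure D4:**
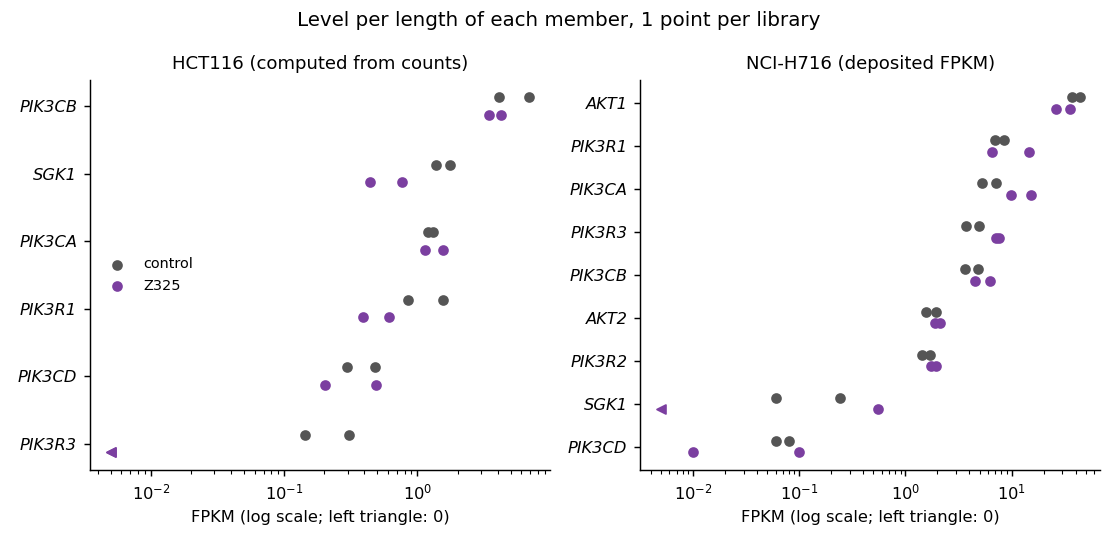
FPKM of each gene on a log axis, 1 point per library, for control (grey) and Z325 (purple), with genes ordered by the control mean and left triangles for values of 0. *PIK3CB* leads in HCT116 at a control mean of 5.51 FPKM and *AKT1* in NCI-H716 at 40.1, and the panels use different quantification and are not compared.

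The rest of the pathway was followed over 83 other genes in 9 lists. In HCT116 36 were listed and 31 tested, of which 0 rose and 1 fell at an adjusted p under 0.05 in edgeR, against 5.78% of all genes called in either direction. Of the 31, 4 were higher and 2 lower before adjustment (p under 0.05), against 11.2% and 12.7% of all genes, and the median log2 fold change was -0.02. In NCI-H716 69 were tested, of which 2 rose and 0 fell, against 0.502% of all genes called. Before adjustment 9 were higher and 3 lower, against 7.59% and 9.27% of all genes, and the median was 0.12.

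The gene that fell in HCT116 was *FKBP5*, a cochaperone of the glucocorticoid receptor and itself induced by it. It stood at 121.5 and 116.0 CPM in the controls and 60.5 and 70.2 CPM with Z325, a log2 fold change of -0.87 (SE 0.17, edgeR adjusted p = 0.0284). The call was lost without control replicate 1 (edgeR adjusted p = 0.206), without control replicate 2 (0.220) and in limma on log2(FPKM + 1) (0.110), with the direction kept in each. Of the 4 tested genes of the glucocorticoid receptor list it was the one called. *NR3C1*, the receptor gene, stood at 30.7 and 16.0 CPM against 15.5 and 9.45 (log2 fold change -0.87, edgeR adjusted p = 0.224). The other 2 of the list went the other way in HCT116. *ERRFI1*, a feedback inhibitor of EGFR, stood at 557.8 and 588.6 CPM against 677.6 and 737.7 (log2 fold change 0.30, edgeR adjusted p = 0.187). *DUSP1* had a log2 fold change of 0.44 (edgeR adjusted p = 0.438). In NCI-H716 *FKBP5* stood at 39.1 and 40.7 CPM in the controls and 36.9 and 37.3 CPM with Z325, and the difference between the lines had an edgeR adjusted p of 0.213. *ERRFI1* stood at 32.0 and 37.0 CPM in NCI-H716 controls and 63.2 and 69.4 CPM with Z325, with an edgeR adjusted p of 0.0615.

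Of the 13 FOXO target genes tested in NCI-H716, 1 rose and 0 fell. It was *PDK4*, a kinase that restrains pyruvate oxidation, at 8.25 and 11.5 CPM in the controls and 45.5 and 60.3 CPM with Z325. Its log2 fold change was 2.43 (SE 0.25, edgeR adjusted p = 0.00182), and both treated libraries lay far above both controls. The adjusted p was 0.0836 in limma on log2(FPKM + 1) and 0.0902 in edgeR with all 8 libraries in 1 fit. *CDKN1B*, the gene of the cell cycle inhibitor p27, stood at 12.1 and 15.9 CPM against 20.8 and 34.0 (edgeR adjusted p = 0.156), and 6 of the 13 had both Z325 libraries above both controls, against 24.3% of all genes. The median of the 13 was 0.42. In HCT116 0 of the 8 tested FOXO target genes were called, and the median was -0.13. Both Z325 libraries lay above both controls for 2 of the 8 and below for 2, against 24.8% and 29% of all genes. The 2 below were *CITED2*, at 5.21 and 3.99 CPM against 1.56 and 2.58 (edgeR adjusted p = 0.227), and *BCL2L11*, at 9.26 and 8.74 against 3.36 and 6.88 (edgeR adjusted p = 0.272). *GADD45A*, a stress-induced gene of that list, stood at 60.2 and 76.2 CPM in HCT116 controls and 112.4 and 118.3 CPM with Z325 (edgeR adjusted p = 0.0516), and *PDK4* had 5 and 10 counts against 4 and 15. The difference between the lines for *PDK4* had an edgeR adjusted p of 0.699.

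The other gene that rose in NCI-H716 was *TRIB3*, which encodes a pseudokinase that binds AKT and is also known as a target of the stress factor ATF4. It stood at 80.4 and 89.6 CPM in the controls and 220.7 and 238.3 CPM with Z325, a log2 fold change of 1.43 (SE 0.16, edgeR adjusted p = 0.00410). In limma on log2(FPKM + 1) the adjusted p was 0.0711. It was 1 of 3 tested genes on the list of AKT and PI3K inhibitors, whose median was -0.32. Among the docking adaptors, which link receptors to PI3K, *IRS2* stood at 11.1 and 13.1 CPM in the controls and 18.5 and 24.98 with Z325 (edgeR adjusted p = 0.159), and *IRS1* at 11.2 and 9.99 against 14.0 and 20.3 (edgeR adjusted p = 0.234).

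The remaining 6 lists had 0 called genes in either line. In NCI-H716 the 13 genes of the mTOR complexes and TSC had a median of -0.23, with both Z325 libraries below both controls for 6 and above for 4, against 25.1% and 24.3% of all genes. The substrates of AKT and SGK had a median of -0.21 over 10 genes, the phosphatases 0.14 over 7, the other PI3K genes 0.23 over 4 and the other AKT and SGK kinases with PDPK1 -0.14 over 4. In HCT116 *PIK3R4*, the regulatory partner of the class III enzyme, stood at 36.2 and 40.7 CPM in the controls and 23.5 and 18.9 CPM with Z325 (edgeR adjusted p = 0.0859). *RHEB*, the activator of mTOR, stood there at 1011 and 1167 CPM against 1458 and 1552 (edgeR adjusted p = 0.0729).

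**Figure D5:**
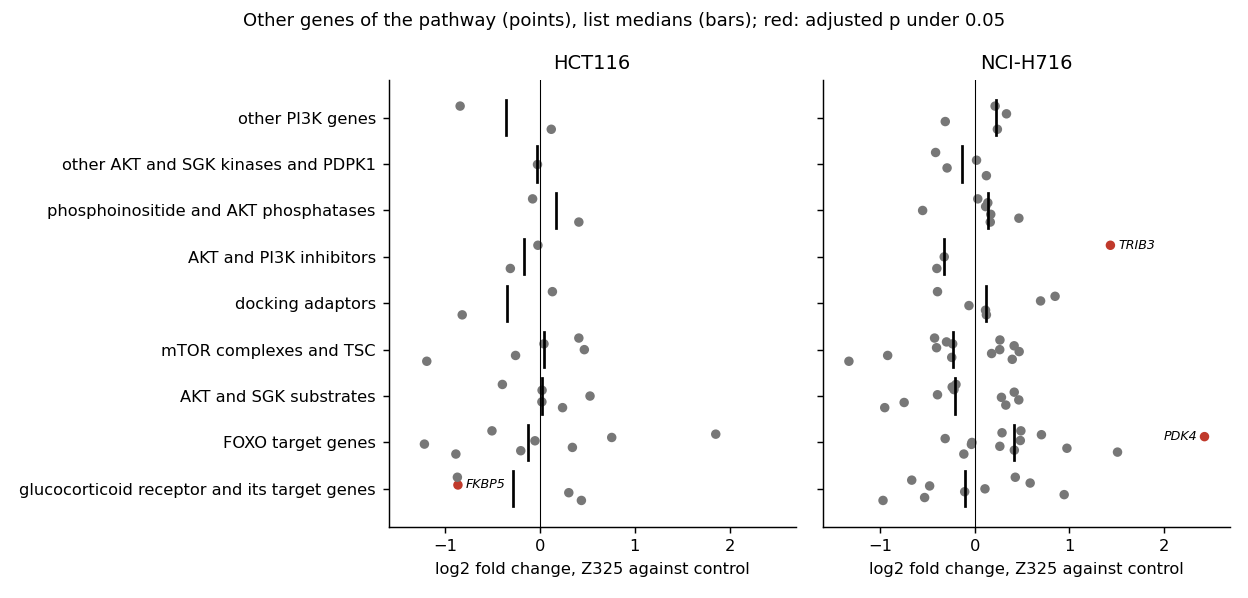
Log2 fold change of Z325 against control for each tested gene of the 9 other pathway lists (points), in HCT116 (left) and NCI-H716 (right), with list medians as bars and genes at an adjusted p under 0.05 in red. The red points are *FKBP5* in HCT116 at -0.87 and *TRIB3* and *PDK4* in NCI-H716 at 1.43 and 2.43.

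The genes whose log2 CPM, centred within each line, ran most like *PIK3R1* over the 8 libraries were *CENPF*, *TENT5A* and *SPEN*, with Pearson r of 0.97, 0.96 and 0.96 among 5013 genes. Those most like *SGK1* were *TAMM41*, *D2HGDH* and *CDC25A*, at 0.96, 0.96 and 0.94 among 5014 genes. The points share libraries, depth and treatment, *SGK1* was near 0 in 4 of the 8, and the values are a description.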

How the data were processed

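Counts and the lengths behind FPKM were taken from 1 table of HCT116, in which the authors deposited read counts without normalization, and from 4 NCI-H716 tables, in which the authors deposited the expected counts, TPM and FPKM of RSEM. Gene positions, shared exon bases and the lengths of single transcripts came from GENCODE v44. The submitters' processing notes name Bowtie2 2.5.0, featureCounts and hg38, whereas the paper's methods name SMART-Seq2 amplification, STAR and RSEM on GRCh38. Which aligner made which table is not given in the sources used here. For HCT116, 4 broken lines and genes beyond the start of chromosome 9 were not used here.

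Expected counts were rounded to whole numbers (6342 NCI-H716 genes held values that were not whole). Each line was fitted alone with edgeR 4.0.16 (TMM, filterByExpr, quasi-likelihood test, Benjamini-Hochberg adjustment over all genes tested), without a replicate block. TMM factors ran from 0.956 to 1.04 and edgeR's biological coefficients of variation were 0.245 (HCT116) and 0.203 (NCI-H716). With 2 libraries a group an exact permutation test of a single gene cannot pass 0.05, so none was run. Alternatives used DESeq2 1.42.0, limma 3.58.1 on log2(FPKM + a pseudocount of 1 or 0.1), other filters and scalings, a replicate block, all 8 libraries in 1 fit, and each library left out. The scripts ran in R 4.3.3 and Python 3.11.15 (with pandas 2.3.3) and were tested on simulated data, and figures were drawn with matplotlib 3.10.9. Symbols came from GENCODE v44 for 62666 of the NCI-H716 identifiers.

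The members and lists were chosen with earlier results of these data known. Named were the 9 genes, genes sharing exon bases with them, up to 3 tested genes a list and line with the smallest edgeR p, and the 3 genes most like *PIK3R1* and *SGK1*. Motifs and the promoter windows shown, and the reads of overlapping genes added to a member, were chosen after the data were seen. The ratios and shares between members were not among the planned results.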

Additional observations from a re-analysis of the deposited data

How the results depend on the processing

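In the reported fits 0 of the 6 tested genes passed an adjusted p of 0.05 in HCT116 and 0 of 7 in NCI-H716. Without a filter on low counts 3 passed in HCT116 (*PIK3R1*, *PIK3R3* and *SGK1*, all lower) and 1 in NCI-H716 (*PIK3CA*), and with all 8 libraries in 1 fit 1 passed in HCT116 (*PIK3R3*). The adjusted p of *PIK3R3* in HCT116 was 0.0126 and 0.0107 there, and DESeq2 gave none. Leaving out each library in turn gave 0 to 2 calls in HCT116 and 0 to 1 in NCI-H716. For the difference between the lines, DESeq2 and no filter each called 1 gene, *PIK3R3* (adjusted p of 0.0226 and 0.000627), and leaving out a library called 0 to 1.

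Over all genes, HCT116 calls were 375 and moved to 759 with DESeq2, 683 without a filter, 615 with a minimum of 10 counts in every library, and 47 and 37 with limma on log2(FPKM + 1) and log2(FPKM + 0.1), with 23 to 1076 on leaving out a library. NCI-H716 calls were 71 and moved to 364 with DESeq2, 777 without a filter, 6 and 6 with limma at these pseudocounts and 19 with all 8 libraries in 1 fit, with 38 to 1386 on leaving out a library. Pathway list calls in HCT116 were 1 and moved to 3 with DESeq2, 2 without a filter, 3 with the minimum of 10 counts, 0 and 0 with limma and 4 with all 8 libraries, with 0 to 5 on leaving out a library. In NCI-H716 they were 2 and moved to 7 without a filter, 0 and 0 with limma and 1 with all 8 libraries, with 2 to 9 on leaving out a library. The cause of these shifts was not tested.

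The replicate numbers are not known to pair the libraries. Deviations of same-numbered libraries correlated at -0.031 in HCT116 and 0.198 in NCI-H716. With the replicate number as a block, 2 of the 7 genes passed in NCI-H716, *PIK3CA* (0.85, adjusted p = 6.56e-05) and *AKT1* (-0.42, adjusted p = 0.0221), list calls were 13 there and 2 in HCT116, and NCI-H716 calls over all genes were 2397. The block changed no call among the 6 in HCT116.

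None of the log2 fold changes that turned direction was called. In NCI-H716 *PIK3R3* gave 0.66 and 0.76 with limma at the pseudocounts 1 and 0.1, and *AKT2*, near 0, gave 0.016 without a filter, 0.0090 with the minimum of 10 counts, 0.14 and 0.20 with limma and 0.0060 with the block. On leaving out a library, *PIK3CA* and *PIK3CD* in HCT116 ran from -0.17 to 0.42 and from -0.84 to 0.29. In NCI-H716 *PIK3R1* ran from -0.26 to 0.60, *PIK3R2* from -0.14 to 1.01, *PIK3R3* from -0.35 to 0.11 and *AKT2* from -0.16 to 0.19. Ranked by FPKM in 1 library alone, 1 of 6 genes kept its place in HCT116 control library 1, 3 of 6 in Z325 library 2 and 5 of 9 in NCI-H716 Z325 library 1. Levels near 0 limit *PIK3R3* and *PIK3CD* in HCT116 and *SGK1* and *PIK3CD* in NCI-H716.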
